A study of Zeugodacus cucurbitae with 6 samples.

Results

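Solute carriers are membrane proteins that move small molecules across cell membranes without hydrolysing ATP themselves, and the genes studied here are the 44 of 12834 genes in the deposited table whose name begins with Slc and a family number, or with Orct. Of these, 31 carried an Slc name and fell into 15 numbered families, and 13 carried an Orct or Orct2 name. Orct stands for organic cation transporter, the fly name for proteins of the kind numbered family 22 in mammals. Members were taken by name only, but the choice of this family was made with earlier results of these data known. Carriers known only by a number or by another fly name are not among them.

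RNA was measured in whole 3rd instar larvae of the melon fly, Zeugodacus cucurbitae, in 3 non-irradiated libraries (0 Gy) and 3 irradiated libraries. In the irradiated group, eggs about 25 h old had received 50 Gy of gamma radiation from radioactive cobalt at 1.0 Gy per minute, with oxygen present, and larvae of both groups were raised on the same artificial diet. Each library came from a pool of 20 larvae, so differences between single larvae, and between survivors and larvae that died earlier, cannot be seen. No strain or sex was given for the larvae of either group.

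Numbered families of carriers are defined by sequence, and each tends to handle related substrates. Families 1, 6 and 7 carry amino acids, family 5 couples the uptake of solutes to sodium, family 16 carries monocarboxylates, family 25 serves the mitochondrion, and families 30, 31 and 41 carry zinc, copper and magnesium. In insects many of these proteins work in the gut, the Malpighian tubules (the excretory organ) and the fat body, where they take up nutrients and clear waste and foreign compounds. The roles given for single genes below are those known in mammals unless another species is named. No protein or promoter sequence of these genes was used here, so none is shown. How the counting treated reads that match several close relatives was not tested.

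The library totals lay between 13192748 and 14115043 counts in non-irradiated replicates 1 and 2, at 16344295 in non-irradiated replicate 3, and from 17191722 to 18311658 in irradiated libraries. Depending on the library, 1 count was worth 0.0546 to 0.0758 CPM, a level relative to the library total. Irradiated replicates 1 and 2 were far more alike (biological coefficient of variation 0.0322) than the other 14 pairs of libraries (0.243 to 0.455), so results are also given with this pair summed into 1 library. Larval muscle genes (4 of 13 symbols matched) summed to 7507 to 10300 normalized CPM in non-irradiated and 6315 to 8982 in irradiated libraries. None passed an adjusted p of 0.05 in edgeR's test, which 3.74% of all tested genes passed. The 2 matched imaginal disc genes of 10 symbols, Dll_0 and Scr, summed to 4.95 to 6.38 and 1.01 to 1.27 normalized CPM. Both were lower at that threshold in edgeR's test, as were 1.60% of all tested genes, and both were named after their values were seen. Syt1_0, the only matched nervous system gene of 9 symbols, had 8 to 29 counts in non-irradiated and 4 to 30 in irradiated libraries. None of the symbols chosen for fat body, haemocytes, gut, Malpighian tubule and salivary gland was matched, so the make-up of the pools in these organs was not checked, and the part of tissue make-up in the results below was not tested. In bulk RNA, fewer cells of a type and less RNA per cell cannot be told apart.

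Levels of different genes were compared as FPKM, in which a count is divided by the gene length and the library total. The mean FPKM over the 6 libraries was above 10 for 20 of the 44 carriers, and above 1 for 32. Slc25a3_3, named after the mitochondrial phosphate carrier that brings phosphate into the matrix for ATP synthesis, was far above the rest, at 424, 382 and 396 FPKM in non-irradiated and 352, 359 and 325 in irradiated libraries. It made up 35.8% to 40.7% of the summed FPKM of all 44 carriers. Orct_7 followed with a mean of 84.3 FPKM, then Orct2_5 with 75.8 and Orct2_4 with 48.8. The next 6 were Slc16a14_2 (42.4), Slc25a3_1 (38.4), Slc31a1_0 (37.6), Slc26a11_1 (33.9), Slc30a1_0 (27.9) and Slc16a4_2 (27.3), whose libraries overlapped with those of their neighbours in this order. The lowest of the 39 genes with enough counts to be tested was Orct_10, at a mean of 0.206 FPKM.

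**Figure D1:**
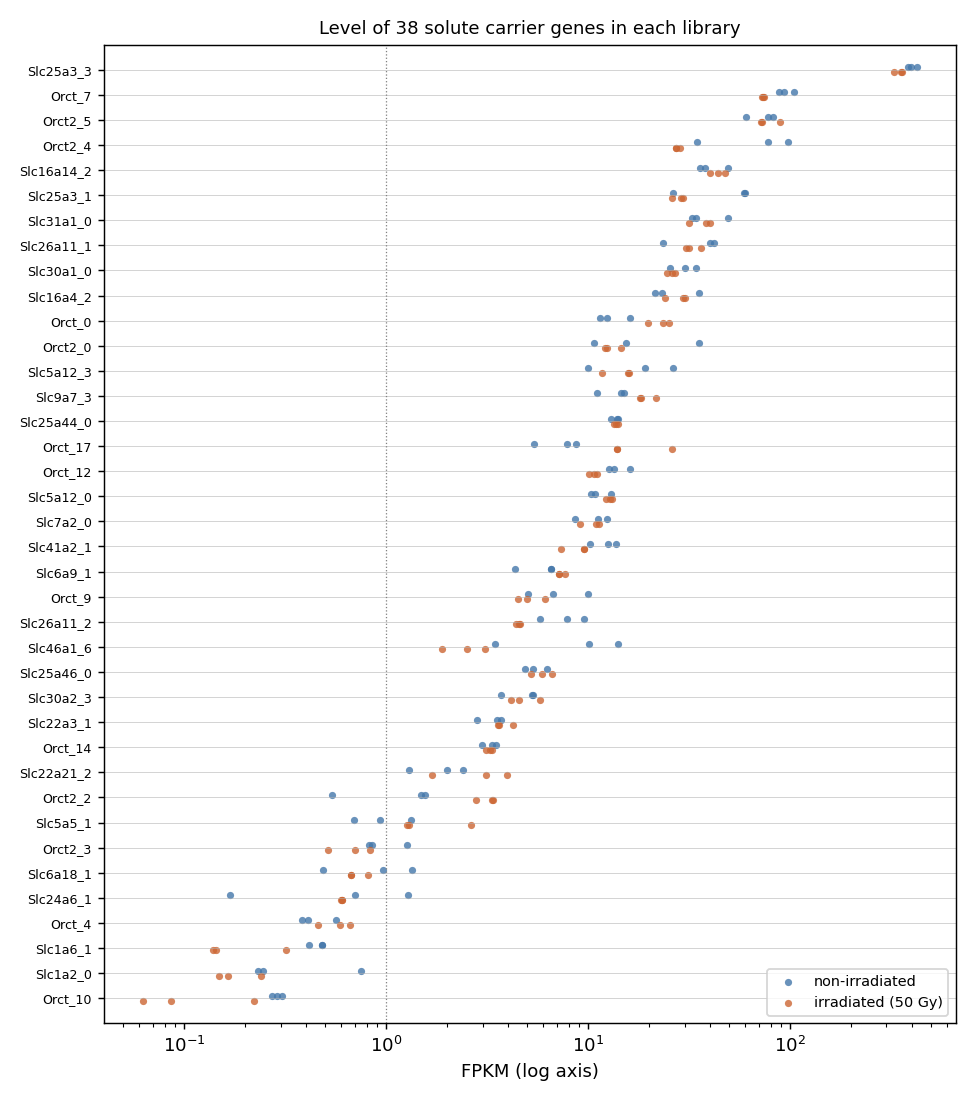
FPKM (log axis) of 38 of the 39 tested solute carrier genes in each of 3 non-irradiated (blue) and 3 irradiated (orange) libraries, 1 point per library, ordered by mean. Slc25a3_3 stands apart at 325 to 424 FPKM, and 7 genes have a mean under 1 FPKM (left of the dotted line).

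The carriers together took 0.232% to 0.263% of all counts in non-irradiated libraries and 0.217% to 0.225% in irradiated libraries. After TMM normalization (a scaling by the bulk of genes) their summed level was 2455 ± 128 and 2229 ± 58.7 normalized CPM (SD, n = 3 libraries each), ranging from 2352 to 2598 and from 2167 to 2284. The summed levels of the groups thus did not overlap, and the irradiated libraries were lower. Slc25a3_3 supplies more of this sum than any other member. Without it, the summed FPKM was 702, 685 and 577 in non-irradiated and 565, 574 and 573 in irradiated libraries. These values did not overlap, but non-irradiated replicate 3 was close to the irradiated libraries. In normalized CPM the sum without Slc25a3_3 did overlap, with irradiated replicate 2 slightly above non-irradiated replicate 3. The sums with it were 2284 and 2352 in these 2 libraries, of which Slc25a3_3 made up 715 and 789.

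Groups were compared gene by gene with edgeR's quasi-likelihood test over all 9768 genes that passed the count filter, 39 of them carriers. At a Benjamini-Hochberg adjusted p under 0.05, 365 of the tested genes (3.74%, with 2.14% higher and 1.60% lower) were called and none of the 39 carriers was. The smallest adjusted p among the carriers was 0.0556. An unadjusted p under 0.05 was reached by 13 carriers, 5 higher and 8 lower in irradiated larvae, against 21% of all tested genes. DESeq2, the package named in the study's methods, called 7 carriers at its own adjusted p under 0.05, where 11.0% of all genes were called. These were Orct_0, Orct_17 and Orct2_2, which were higher, and Orct2_4, Orct_7, Slc26a11_2 and Slc46a1_6, which were lower. With irradiated replicates 1 and 2 summed, edgeR called none of the carriers (0.252% of all genes called), and limma on log2(FPKM + 1) or log2(FPKM + 0.1) called none. Without non-irradiated replicate 2, edgeR called Orct_0 and Slc46a1_6 (2.75% of all genes called), and without non-irradiated replicate 3 it called Orct2_4, Slc25a3_1 and Slc26a11_2 (2.43% of all genes called).

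The study's methods used a looser threshold. It asks for p under 0.05 without adjustment, for a change of 0.58 or more on the log2 scale, and for more than 1 FPKM in some library. In edgeR's test 7 carriers met it. This is 17.9% of the 39, beside 11.6% of all tested genes. Orct_0, Orct_17 and Orct2_2 were higher in irradiated larvae (6.0% of all tested genes were called in this direction), and Orct2_4, Slc25a3_1, Slc26a11_2 and Slc46a1_6 were lower (5.58%). At this threshold DESeq2 called the same 7 genes. With irradiated replicates 1 and 2 summed, 6 of them were called and Slc25a3_1 was not, with 10.2% of all genes called. Orct_0, Orct_17, Orct2_2, Orct2_4, Slc26a11_2 and Slc46a1_6 met this threshold in each of the 16 refits with another method, scaling, filter or set of libraries, and Slc25a3_1 did not meet it in 9 of them.

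The median log2 fold change of the 39 carriers was -0.08, beside -0.01 for all tested genes, and values ranged from -1.83 (Slc46a1_6) to 1.38 (Orct2_2). The groups did not overlap for 15 carriers (38.5%), 5 higher and 10 lower in irradiated larvae, beside 28.4% of all tested genes (15.0% higher and 13.4% lower). The median size of the log2 fold change, whatever its sign, was 0.36 for the carriers and 0.24 for all tested genes. By mean level, 3 of the 12 tested carriers between 1 and 10 FPKM met the study's threshold, 4 of the 17 between 10 and 50, and none of the 3 above 50. The other 7 had a mean under 1 FPKM, where the FPKM criterion itself limits what can be called. Over all tested genes of any level 11.6% met this threshold, and the share at each level was not computed. Of the 3 carriers above 50 FPKM, 2 did not overlap between the groups.

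**Figure D2:**
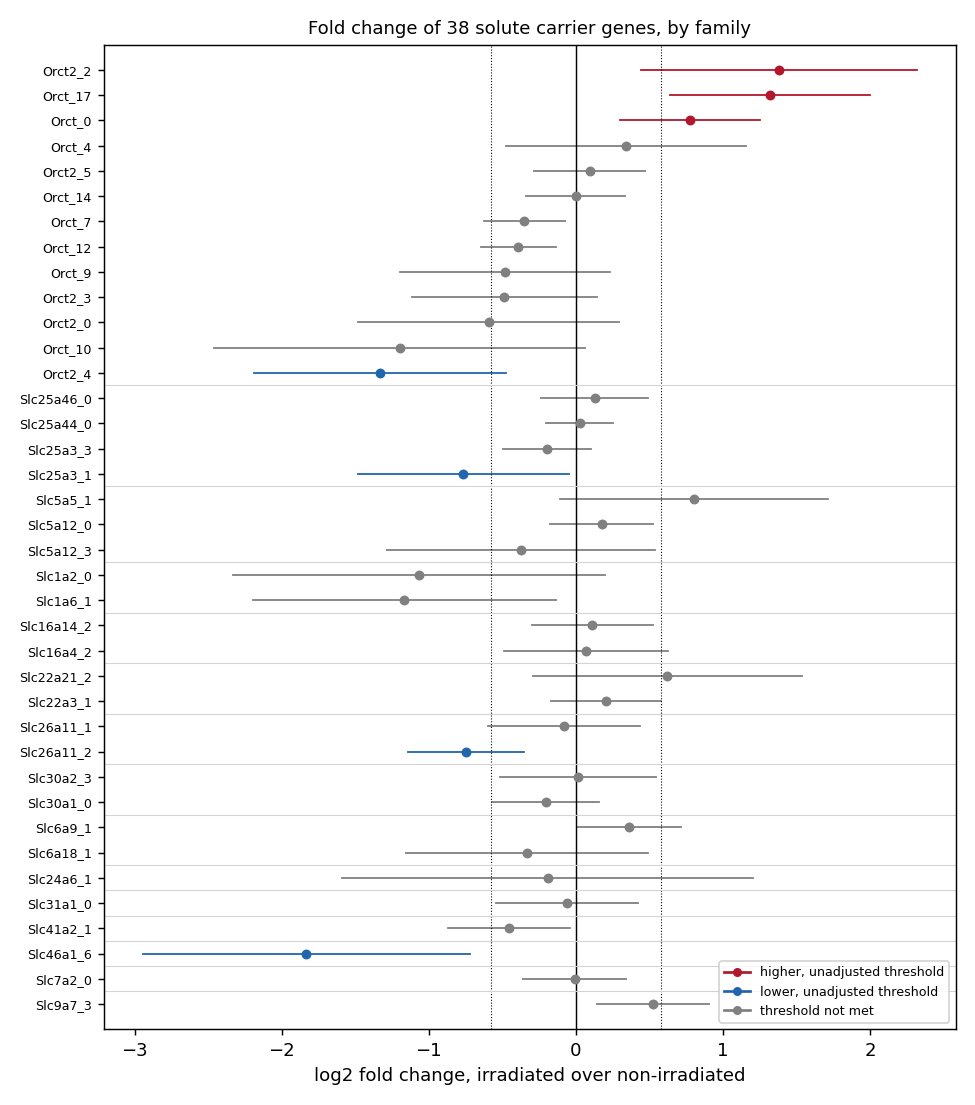
Log2 fold change, irradiated over non-irradiated, of 38 of the 39 tested carriers with its 95% interval from edgeR's fit, grouped by family (grey lines separate families, dotted lines mark 0.58 in each direction). Genes past the unadjusted threshold are red (3 higher) or blue (4 lower), and the Orct group at the top holds both the largest increase and the second largest decrease by fitted value.

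Organic cation carriers formed the largest group, with 13 Orct genes and 2 genes of family 22, all of them tested. These proteins take up or release charged organic compounds, among them metabolites, toxins and drugs, and in Drosophila melanogaster Orct2 (also called calderon) is needed for tissue growth. Of the 13 Orct genes, 3 were higher and 1 was lower by the study's threshold, beside 11.6% of all tested genes. Another 3 (Orct_7, Orct_10 and Orct_12) lay lower in every irradiated library without meeting it. The remaining 6 overlapped between the groups. Without overlap were thus 53.8% of the 13 (3 higher and 4 lower), beside 28.4% of all tested genes (15.0% higher and 13.4% lower). The median log2 fold change of the 13 was -0.35, with 6 values above 0 and 7 below. With the 2 genes of family 22 added, the median of the 15 was 0.00014, with 8 above 0 and 7 below. Without overlap were 46.7% of these 15.

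Orct_17 had the smallest p of all carriers. Its level was 25.5, 18.2 and 25.5 normalized CPM in non-irradiated and 44.8, 44.9 and 83.3 in irradiated libraries. Every irradiated library lay above every non-irradiated one, and irradiated replicate 3 was 1.86 times the mean of the other two. The log2 fold change was 1.32 with a standard error (SE) of 0.28, a 2.50-fold difference (adjusted p = 0.0556 in edgeR, and from 0.000644 in DESeq2 to 0.119 over the alternatives tried). Without irradiated replicate 3 the log2 fold change was 0.96. In a newer assembly of the genome, the Orct_17 gene overlaps LOC105221541, which had 233 to 280 counts in non-irradiated and 350 to 579 in irradiated libraries, and how reads of the overlap were assigned was not tested.

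Orct2_2 was scarce in non-irradiated larvae. It had 14, 41 and 50 counts there and 112, 121 and 96 in irradiated larvae, or 0.974, 3.07 and 3.10 against 6.58, 6.69 and 5.41 normalized CPM. The groups did not overlap, and non-irradiated replicate 1 was the lowest library by a factor of 3.19 to the highest of its own group. The log2 fold change of 1.38 (SE 0.40, adjusted p = 0.111 in edgeR, 0.0149 to 0.283 over the alternatives) was 1.01 without non-irradiated replicate 1. In the newer assembly Orct2_2 overlaps LOC105213669, which had 858 to 1143 counts in non-irradiated and 1081 to 1249 in irradiated libraries (log2 fold change -0.03), many times those of Orct2_2.

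Orct_0 was at 21.4, 34.9 and 25.5 normalized CPM in non-irradiated and 48.3, 51.8 and 40.0 in irradiated libraries. The groups did not overlap, and the closest libraries were non-irradiated replicate 2 and irradiated replicate 3. Irradiated larvae were higher by 0.78 on the log2 scale (SE 0.20, adjusted p = 0.086 in edgeR). Over the alternatives the adjusted p ran from 0.015 (DESeq2) to 0.257, and it was 0.0427 without non-irradiated replicate 2.

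Orct2_4, the fourth most abundant carrier, was lower in irradiated larvae. It had 146, 210 and 71.3 normalized CPM in non-irradiated libraries, which differed 2.95-fold among themselves, and 55.8, 55.9 and 58.0 in irradiated libraries, which differed 1.04-fold. The irradiated libraries were thus narrowly grouped just below the lowest non-irradiated library, replicate 3. The log2 fold change was -1.33 (SE 0.36, adjusted p = 0.099 in edgeR, 0.00427 to 0.271 over the alternatives), -0.94 without non-irradiated replicate 2 and -1.65 without non-irradiated replicate 3. In the newer assembly Orct2_4 overlaps LOC105208449, which moved the other way, from 855 to 1122 counts in non-irradiated to 1892 to 2501 in irradiated libraries (log2 fold change 0.93, adjusted p = 0.021 in edgeR).

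**Figure D3:**
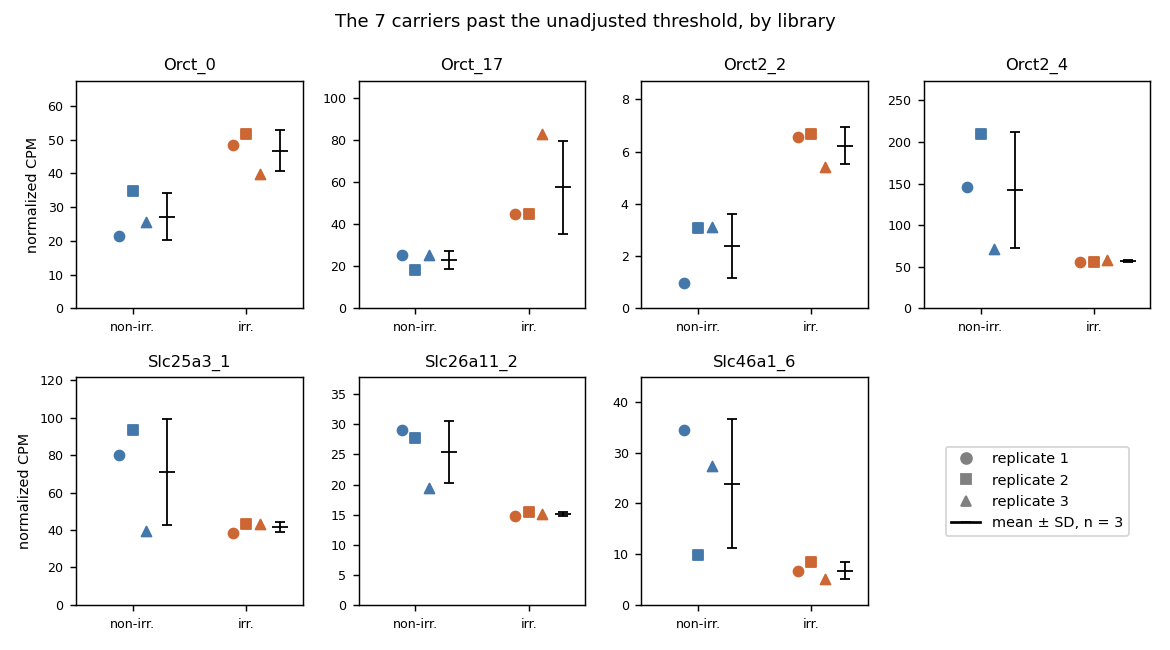
Normalized CPM of the 7 carriers past the study's threshold in each library (blue non-irradiated, orange irradiated, marker shape by replicate), with the mean and SD of 3 libraries in black and the axis of each panel starting at 0. The 3 Orct genes in the first panels are higher in all irradiated libraries. In every panel but that of Orct_17 the irradiated libraries spread less than the non-irradiated ones of the same gene.

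The 2 most abundant organic cation carriers showed small differences. Orct_7 was at 214, 221 and 199 normalized CPM in non-irradiated and 169, 165 and 163 in irradiated libraries, without overlap and with little spread in either group. Its log2 fold change was -0.35 (SE 0.12, adjusted p = 0.151 in edgeR and 0.0215 in DESeq2), below the fold threshold of the study. Orct2_5 was at 149, 163 and 121 against 143, 145 and 174 normalized CPM, with overlap and a 95% interval of the log2 fold change from -0.29 to 0.47.

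Orct_12, at 39.4 to 45.2 normalized CPM in non-irradiated and 30.7 to 34.1 in irradiated libraries, also lay lower without overlap (log2 fold change -0.39, SE 0.11, adjusted p = 0.1 in edgeR). Orct_14 was nearly the same in all 6 libraries, at 5.96 to 6.97 and 6.14 to 6.64 normalized CPM, and the 95% interval of its log2 fold change ran from -0.34 to 0.34. Orct2_0 was high in 1 library only, with 90.5 normalized CPM in non-irradiated replicate 1 against 31.8 to 43.8 in the other 5, and Orct_9 was highest in non-irradiated replicate 2, at 28.0 against 11.8 to 17.9 elsewhere. Their log2 fold changes of -0.59 and -0.48 became -0.04 without non-irradiated replicate 1 and -0.12 without non-irradiated replicate 2. The scarce Orct2_3, Orct_4 and Orct_10 had 31 to 59, 10 to 21 and 3 to 13 counts per library. Orct_10 was lower in every irradiated library only after normalization (log2 fold change -1.20, 95% interval -2.46 to 0.06). Its counts were 10, 10 and 13 against 10, 3 and 4.

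In family 22, Slc22a21_2, named after a mouse carnitine carrier, was at 6.26, 13.3 and 10.7 normalized CPM in non-irradiated and 16.7, 21.1 and 8.84 in irradiated libraries. The groups overlapped, and irradiated replicate 3 was at 0.468 times the mean of irradiated replicates 1 and 2 (log2 fold change 0.62, 95% interval -0.29 to 1.54). Slc22a3_1, named after an organic cation carrier of broad substrate range, differed little, at 7.08 to 9.30 and 8.95 to 10.6 normalized CPM.

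Several organic cation carriers lie next to each other in the newer assembly, in which all 44 names were found. Orct2_0 and Orct2_5 are direct neighbours, followed by Orct_4 and Orct_17, each after 1 intervening gene, and Orct2_4 after 9 more. The levels and the differences varied between these neighbours. Their mean FPKM was 16.7, 75.8, 0.511, 12.6 and 48.8 in that order, and their log2 fold changes were -0.59, 0.09, 0.34, 1.32 and -1.33. The FPKM of Orct2_5 was 7.73 to 14.5 times that of Orct_17 in non-irradiated and 3.40 to 5.23 times in irradiated libraries, and the ratio of Orct2_4 to Orct2_5 was 0.567 to 1.25 and 0.321 to 0.377. A further run holds Orct_0, Slc22a21_2 and Orct_10 without a gene between them, at mean levels of 18.0, 2.41 and 0.206 FPKM and log2 fold changes of 0.78, 0.62 and -1.20. In this assembly 16 of the 44 carriers overlap another gene that was counted. The overlaps are described only for genes past the study's threshold, and not for others such as Slc5a5_1, Slc9a7_3 and Slc24a6_1.

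Mitochondrial carriers of family 25 comprised 6 genes, of which 4 were tested. Of these 4, 1 (Slc25a3_1) was lower by the study's threshold, beside 5.58% of all tested genes. Slc25a3_3 and Slc25a3_1 are both named after the phosphate carrier. Slc25a3_3 was at 765, 795 and 789 normalized CPM in non-irradiated and 699, 715 and 638 in irradiated libraries. Each irradiated library lay below each non-irradiated one, but the difference was small (log2 fold change -0.19, 95% interval -0.49 to 0.10, adjusted p = 0.434 in edgeR).

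Slc25a3_1 was at 80.1, 93.5 and 39.4 normalized CPM in non-irradiated and 38.6, 43.2 and 43.5 in irradiated libraries. Non-irradiated replicate 3 lay among the irradiated libraries, so the groups overlapped, and the other 2 non-irradiated libraries were about 2 times as high. The log2 fold change was -0.76 (SE 0.30, adjusted p = 0.213 in edgeR), -0.52 without non-irradiated replicate 2, and -1.05 with an adjusted p of 0.0253 without non-irradiated replicate 3. Over the alternatives the adjusted p rose to 0.443. In the newer assembly this gene overlaps LOC105215615, which had 25 to 36 counts per library. The FPKM of Slc25a3_3 was 7.15, 6.36 and 15.0 times that of Slc25a3_1 in non-irradiated and 13.6, 12.4 and 11.0 times in irradiated libraries.

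Slc25a44_0, named after a carrier of branched-chain amino acids, was among the steadiest carriers, at 28.9 to 31.5 and 29.8 to 31.7 normalized CPM (log2 fold change 0.03, 95% interval -0.20 to 0.25). Slc25a46_0, whose namesake sits on the outer mitochondrial membrane and acts in mitochondrial shape, was at 9.88 to 12.7 and 10.6 to 13.3 normalized CPM. The other 2, Slc25a3_2 and Slc25a45_0, had 1 and 5 counts over all 6 libraries together.

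Family 26 exchanges anions, and Slc26a11 is named after a sulfate and anion carrier. Slc26a11_2 was at 29.1, 27.7 and 19.4 normalized CPM in non-irradiated and 14.8, 15.5 and 15.0 in irradiated libraries, without overlap. The irradiated libraries differed by less than 1.05-fold, and non-irradiated replicate 3 was nearest to them. Its log2 fold change was -0.75 (SE 0.17, adjusted p = 0.0584 in edgeR), a level 1.68 times as high in non-irradiated larvae. Over the alternatives the adjusted p ran from 0.00776 in DESeq2 to 0.202, and it was 0.0245 without non-irradiated replicate 3. In the newer assembly this gene overlaps LOC105213498, which had a log2 fold change of 0.09.

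Slc26a11_1, the more abundant gene of the same name, overlapped between the groups at 104, 114 and 64.5 against 82.6, 86.5 and 97.2 normalized CPM (log2 fold change -0.08, 95% interval -0.60 to 0.43). Its FPKM was 4.40, 5.08 and 4.10 times that of Slc26a11_2 in non-irradiated and 6.89, 6.89 and 7.98 times in irradiated libraries. These ratios did not overlap between the groups.

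Slc46a1_6 had the largest decrease among the carriers. Slc46a1 is the proton-coupled folate carrier of the intestine. The gene was at 34.5, 9.82 and 27.3 normalized CPM in non-irradiated and 6.76, 8.35 and 5.01 in irradiated libraries. All irradiated libraries were lower, but non-irradiated replicate 2 was closer to them than to its own group, which spanned 3.51-fold. The log2 fold change was -1.83 (SE 0.46), a level 3.56 times as high in non-irradiated larvae (adjusted p = 0.0875 in edgeR, from 0.00101 in DESeq2 to 0.256 over the alternatives). It was -2.20 with an adjusted p of 0.0186 without non-irradiated replicate 2, and -1.47 without non-irradiated replicate 1.

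Amino acid carriers (families 1, 6 and 7) comprised 6 genes, and none met the study's threshold, which 11.6% of all tested genes met. Slc6a9_1, named after a glycine carrier, was at 29.9, 22.8 and 32.8 normalized CPM in non-irradiated and 35.8, 36.1 and 38.1 in irradiated libraries, without overlap (log2 fold change 0.36, SE 0.15, adjusted p = 0.228 in edgeR). Slc7a2_0, named after a carrier of arginine and other cationic amino acids, was nearly equal between the groups, with means of 65.6 ± 7.92 and 65.2 ± 8.08 normalized CPM (SD over 3 libraries), and the 95% interval of its log2 fold change ran from -0.36 to 0.34.

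The glutamate carriers of family 1 were scarce. Slc1a6_1 had 15, 16 and 16 counts in non-irradiated and 13, 6 and 6 in irradiated libraries, and Slc1a2_0 had 27, 9 and 11 against 7, 12 and 8. After normalization both lay lower in every irradiated library, with log2 fold changes of -1.17 (95% interval -2.20 to -0.14) and -1.07 (-2.33 to 0.20). For Slc1a2_0 the closest libraries were almost equal, at 0.675 (non-irradiated replicate 2) and 0.664 (irradiated replicate 2) normalized CPM. Its log2 fold change was -0.41 without non-irradiated replicate 1. Both genes stayed under 1 FPKM in all 6 libraries and so could not meet the study's threshold. Slc6a18_1, of the amino acid branch of family 6, had 19 to 49 counts per library and overlapped between the groups.

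Of the sodium-coupled carriers of family 5, 3 of 4 genes were tested. None was called by the study's threshold, beside 11.6% of all tested genes. Slc5a12, a lactate and monocarboxylate carrier, gave its name to 3 of them. Slc5a12_3 varied 3.06-fold among the non-irradiated libraries, at 21.7, 66.5 and 46.4 normalized CPM, and was at 37.7, 38.3 and 27.9 in irradiated libraries. Slc5a12_0 was at 15.7 to 21.8 and 19.7 to 21.1 normalized CPM, while its direct neighbour in the newer assembly, Slc5a12_4, had at most 3 counts in any library. Slc5a5_1, named after the iodide carrier of the thyroid, was at 2.09, 3.22 and 4.41 against 4.29, 4.20 and 8.56 normalized CPM. Irradiated replicate 3 was 2.02 times the mean of the other irradiated libraries, and the log2 fold change of 0.81 (95% interval -0.11 to 1.72) was 0.39 without it.

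The 2 monocarboxylate carriers of family 16, Slc16a14_2 and Slc16a4_2, were abundant and differed little between the groups. Slc16a14_2 was at 136, 148 and 196 normalized CPM in non-irradiated and 174, 188 and 156 in irradiated libraries. Slc16a4_2 was at 80.7 to 147 against 98.1 to 125 normalized CPM. In both genes non-irradiated replicate 3 was the highest library of its group and irradiated replicate 3 the lowest of its own. The log2 fold changes were 0.11 and 0.07, with 95% intervals from -0.30 to 0.52 and from -0.49 to 0.63. The FPKM of Slc16a14_2 was 1.56 ± 0.189 and 1.58 ± 0.107 times that of Slc16a4_2 (SD, n = 3 libraries each).

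Among the ion exchangers, Slc9a7_3, named after a sodium-proton exchanger of the Golgi network, was at 73.0, 86.9 and 61.4 normalized CPM in non-irradiated and 99.7, 101 and 118 in irradiated libraries. The groups did not overlap, and the log2 fold change of 0.53 (SE 0.16, adjusted p = 0.125 in edgeR and 0.0512 in DESeq2) lay just under the fold threshold. The other gene with a family 9 name, Slc9a3r1_3, is named after a scaffold protein that binds an exchanger and is not itself a carrier, and it had 0 counts in non-irradiated and 3, 1 and 2 in irradiated libraries, at or under the floor of 3 counts. Slc24a6_1, named after a mitochondrial sodium-calcium exchanger, had 43, 25 and 7 counts against 26, 28 and 27. Its normalized level differed 6.88-fold among the non-irradiated libraries and 1.02-fold among the irradiated ones, so that the 95% interval of its log2 fold change ran from -1.59 to 1.20.

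The 4 metal carriers were all tested and none was called by the study's threshold, beside 11.6% of all tested genes. Slc31a1_0, named after the copper uptake protein, was at 46.1, 50.7 and 73.7 normalized CPM in non-irradiated and 59.9, 57.2 and 46.3 in irradiated libraries. Slc30a1_0, named after the zinc exporter of the cell surface, was at 52.7 to 74.5 and 50.1 to 55.8 normalized CPM, and Slc30a2_3, named after a carrier that moves zinc into vesicles, was at 9.04 to 14.9 and 11.2 to 15.3. The groups overlapped for all 3. Slc41a2_1, named after a magnesium carrier, was lower in each irradiated library, at 35.4, 35.6 and 27.0 against 42.6, 53.7 and 38.1 normalized CPM (log2 fold change -0.46, SE 0.18, adjusted p = 0.202 in edgeR).

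In all, 5 carriers had too few counts to be tested, with at most 5 counts in any library. Beside Slc25a3_2, Slc25a45_0, Slc5a12_4 and Slc9a3r1_3, this was Slc45a2_1, named after a carrier of pigment cells, with 2, 1 and 5 counts in non-irradiated and 0, 2 and 1 in irradiated libraries. At this depth no difference was detectable for them.

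Like most genes in these libraries, most carriers varied more among non-irradiated than among irradiated libraries. The SD of log2 normalized CPM had a median of 0.32 over the 39 genes in non-irradiated and 0.16 in the irradiated group, and was wider in the non-irradiated group for 31 genes (79.5%). Over the 9715 tested genes that no library lacked, the medians were 0.26 and 0.16, and 69.9% were wider in the non-irradiated group. The highest non-irradiated library was more than 2 times the lowest for 12 genes, against 4 genes in the irradiated group. The part of the closely alike irradiated replicates 1 and 2 in this narrower spread was not tested. Irradiated replicates 1 and 2 differed by a median of 0.07 on the log2 scale. Against irradiated replicate 3 they differed by 0.27 and 0.22, where pairs of non-irradiated libraries differed by 0.33 to 0.45. Among the non-irradiated libraries the lowest value lay in replicate 1 for 16 genes, in replicate 2 for 8 and in replicate 3 for 15.

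**Figure D4:**
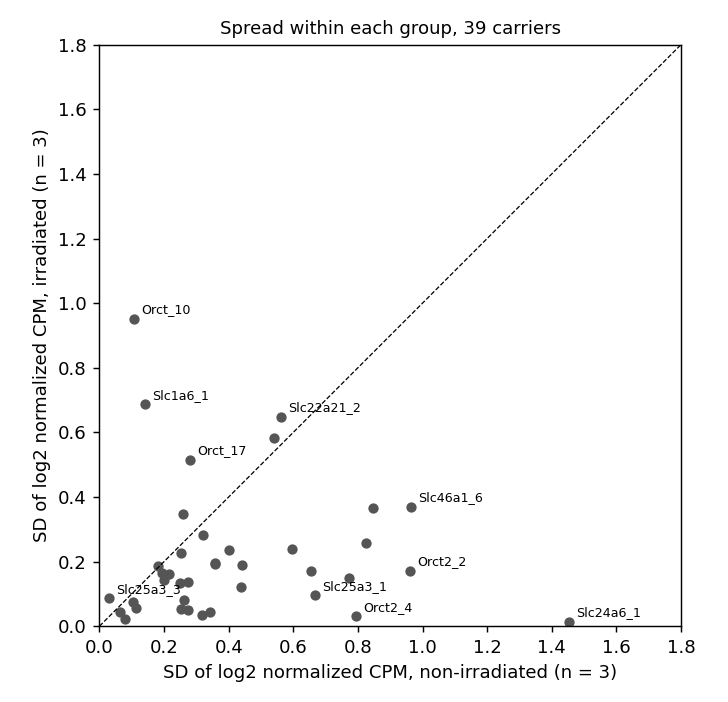
SD of log2 normalized CPM over the 3 irradiated libraries (vertical axis) against that over the 3 non-irradiated libraries (horizontal axis), 1 point per tested carrier, with the dashed line marking equal spread. Most points (31 of 39) lie below the line, Slc24a6_1 and Orct2_4 far to the right of it, while Orct_10, Slc1a6_1 and Orct_17 lie above it.

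Other carriers are listed under fly names, of which 31 genes were matched from a list of 132 symbols and 26 were tested. Few of the symbols were matched: the genes were 14 named Picot, 12 Tret1, 2 Tret1-2, 2 Indy and 1 Papst2. The values below therefore describe mostly Picot and Tret1 genes. The median log2 fold change of the 26 was -0.31. By the study's threshold 8 were lower and none higher, beside 5.58% of all tested genes lower and 6.0% higher. Of 11 tested Picot genes, named after a Drosophila melanogaster phosphate cotransporter of the kind numbered family 17, 6 were lower by that threshold (5.58% of all tested genes). Picot_4 was also lower at an adjusted p under 0.05, as were 1.60% of all tested genes (2294, 2304 and 2470 counts against 1753, 2002 and 1909, log2 fold change -0.60, SE 0.12, adjusted p = 0.0434 in edgeR). The other 2 were among the 12 tested Tret1 genes, named after a trehalose carrier, whose log2 fold changes ran from -0.90 to 0.53.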

How the data were processed

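RNA-seq gene counts of 6 libraries were used, grouped by their labels. The authors filtered reads with Perl scripts, aligned them with HISAT2 and counted them per gene with HTSeq, for which the labels give version 0.6.1p2 and the paper another. They deposited whole-number counts without normalization, and FPKM values computed by the authors from count and gene length. Whether counting used strand is not given in the sources used here.

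Counts were fitted over all genes with edgeR 4.0.16 (R 4.3.3; TMM, filterByExpr, robust glmQLFit, glmQLFTest, Benjamini-Hochberg adjustment). The standard error is the log2 fold change over the square root of F, and 95% intervals use the test's degrees of freedom. Alternatives were DESeq2 1.42.0, limma 3.58.1 on log2(FPKM + 1) and log2(FPKM + 0.1), other scalings, filters and thresholds, the replicate number as a block, irradiated replicates 1 and 2 summed, and each library left out. Members and lists were chosen with earlier results of these data known. The genes to name were those past a threshold, the 10 with the highest mean FPKM, the highest of each family with at least 3 members and all Orct genes, 24 in all. The other members are given because the family is described whole, except 1 that is counted but not reported here, and Picot_4 and the 2 matched disc genes were named after their values were seen. Names and gene order came from the table of assembly idZeuCucr1.2, which is not the build of the counts, so positions are left out. The script was tested on simulated data. The paper describes replicates of each treatment, each made up of its own Petri dishes of eggs, with larvae for RNA taken from each replicate. It does not state whether the replicates were kept apart on the diet after hatching, and irradiated replicates 1 and 2 were unusually alike. The p-values therefore measure the spread between these libraries, part of which may be technical.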

Additional observations from a re-analysis of the deposited data

How the results depend on the processing

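The number of carriers past an adjusted p of 0.05 was 0 in each direction in edgeR's test and in every alternative except DESeq2 (3 higher and 4 lower) and the fits without non-irradiated replicate 2 or 3. Over the libraries left out in turn it ran from 0 to 1 higher and from 0 to 3 lower. By the study's threshold 3 were higher and 4 lower, with 3 to 4 higher and 3 to 5 lower over the libraries left out, and 2 of each at a log2 fold change of at least 1. The median log2 fold change of -0.08 was -0.014 with at least 10 counts in every library, and from -0.14 to -0.043 over the libraries left out. Deviations from the group means correlated at -0.01, -0.10 and -0.15 between same-numbered libraries of the 2 groups. Between differently numbered libraries they correlated at -0.12 to 0.14. Deviations from a mean of only 3 libraries depend on each other, so these values cannot show whether the libraries were paired. With the replicate block the median was -0.039, and 0 carriers passed an adjusted p of 0.05 while 89 of all tested genes did, against 365 without the block. By the study's threshold 4 were higher and 3 lower, Slc5a5_1 being added and Slc25a3_1 lost.

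Of 604 refits of single carriers, 564 kept direction and side of the adjusted threshold, 12 passed it and 28 changed sign. The gene with the largest value to change sign was Slc5a12_3, at -0.37. Orct_14 was at -0.0031 with RLE normalization, -0.017 with total counts only, -0.0048 with at least 10 counts, -0.0020 with DESeq2, -0.012 and -0.015 with limma at a pseudocount of 1 and 0.1, and -0.012 with the pair summed. Slc24a6_1 was at 0.069 with limma at a pseudocount of 0.1 and 0.041 with the replicate block, and Slc7a2_0 at 0.0058 without a filter. Over the libraries left out, log2 fold changes ran from -0.048 to 0.063 (Orct_14), -0.014 to 0.19 (Orct2_5), -0.11 to 0.35 (Slc16a4_2), -0.67 to 0.44 (Slc24a6_1), -0.0075 to 0.060 (Slc25a44_0), -0.29 to 0.078 (Slc26a11_1), -0.18 to 0.14 (Slc30a2_3), -0.19 to 0.17 (Slc31a1_0), -0.71 to 0.023 (Slc5a12_3) and -0.11 to 0.092 (Slc7a2_0). For genes under 20 counts per library, such as Orct_10 and Slc1a6_1, depth limits the precision.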
